A study of Mus musculus with 12 samples.

Results

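The genes described here encode the immediate early transcription factors of the Fos, Jun and Egr families, namely Fos, Fosb, Fosl1, Fosl2, Jun, Junb, Jund, Egr1, Egr2 and Egr3. Their probe sets were found by gene symbol in the platform annotation, which gave 16 probe sets for these 10 genes, of 45037 probe sets tested and 18193 genes with a probe set of their own. Fos, Fosb, Junb and Egr1 had 1 probe set each, and the other members had 2. A separate probe set annotated to Junos, the antisense neighbour of Jun, was not counted as a member.

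RNA came from C3H10T1/2, an embryonic mouse mesenchymal cell line that can enter the cartilage, bone and fat lineages, and was read on 12 Affymetrix arrays in 4 groups of 3. One experiment transfected cells with siRNA-140, a mimic of miR-140, or with siRNA-96 as its control. The other transfected LNA-antimicroRNA-140, an oligonucleotide that suppresses the cells' own miR-140 (anti-miR-140 below), or LNA-antimicroRNA-449 as its control (anti-miR-449). No untransfected cells were analysed here, each control itself targets or mimics another microRNA, and nothing in the labels tells if the 3 arrays of a group came from cultures of their own, so p-values measure the spread between these arrays only.

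Immediate early genes are transcribed within minutes of a growth factor, serum or stress signal, without new protein synthesis. MAP kinases activate factors already bound to their promoters, among them serum response factor with its Elk partners and the cyclic AMP response element binding protein. Fos proteins pair with Jun proteins to form the AP-1 dimer, and Egr proteins are zinc finger factors that bind GC-rich sites. Their transcripts are short-lived.

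The bases before the annotated start are shown for Fos and Fosb, the members with the widest spread over the anti-miR arrays, and for Egr2, the member that passed a test in one setting of the siRNA comparison. Each is the 250 bases before the start, written 5′ to 3′ on the gene's strand, from RefSeq on GRCm38.p6. Capitals mark a match to 1 of 5 motifs searched on both strands.
Fos, chr12:85473640-85473889, plus strand: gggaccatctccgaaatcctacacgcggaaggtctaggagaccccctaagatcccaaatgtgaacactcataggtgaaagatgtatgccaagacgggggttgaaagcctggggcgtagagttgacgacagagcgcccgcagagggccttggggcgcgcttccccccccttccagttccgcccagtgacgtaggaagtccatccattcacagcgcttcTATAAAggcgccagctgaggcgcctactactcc
Fosb, chr7:19310046-19310295, minus strand: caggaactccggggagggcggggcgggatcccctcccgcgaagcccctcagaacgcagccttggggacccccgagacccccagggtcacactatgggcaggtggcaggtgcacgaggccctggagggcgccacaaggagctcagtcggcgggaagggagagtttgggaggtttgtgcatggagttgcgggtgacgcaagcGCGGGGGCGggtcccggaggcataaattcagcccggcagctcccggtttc
Egr2, chr10:67537619-67537868, plus strand: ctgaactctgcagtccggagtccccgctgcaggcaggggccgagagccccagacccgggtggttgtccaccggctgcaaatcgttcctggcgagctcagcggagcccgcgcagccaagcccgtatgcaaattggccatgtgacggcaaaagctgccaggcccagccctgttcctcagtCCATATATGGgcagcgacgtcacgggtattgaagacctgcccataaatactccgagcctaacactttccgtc

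The motifs were the CArG box, to which serum response factor binds, the cyclic AMP response element (TGACGTCA), the AP-1 site (TGACTCA or TGAGTCA), the Egr site (GCGTGGGCG or GCGGGGGCG) and the TATA box (TATAAA). Overlapping matches were allowed. In the Fos window the capitals are a TATA box 33 to 28 bases before the start. In the Fosb window they are an Egr site 50 to 42 bases before the start, and in the Egr2 window a CArG box, CCATATATGG, 72 to 63 bases before it. Of 32851 windows of this length, 12.4% held the TATA box, 3.06% the Egr site, 1.47% the CArG box, 4.46% the AP-1 site and 1.55% the cyclic AMP response element. Windows were used for 7 of the 10 members, 11 in all, of which Egr2 had several. Among these 7 genes 1 held a CArG box, 2 an Egr site, 1 a TATA box and 0 the AP-1 site or the cyclic AMP response element in this form. These are matches of letters in these windows only.

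Before any comparison, the siRNA arrays did not lie with their labels. On the log2 scale, the interferon-induced gene Usp18 read 3.85, 4.67 and 8.01 in replicates 1, 2 and 3 of siRNA-140, against 4.65, 8.92 and 9.30 in replicates 1, 2 and 3 of siRNA-96, so siRNA-140 replicate 3 and siRNA-96 replicate 1 each read like the other group. Over all probe sets, siRNA-140 replicate 3 correlated best with replicate 2 of siRNA-96 (Pearson's r = 0.9976), and siRNA-96 replicate 1 correlated best with replicate 1 of siRNA-140 (r = 0.9952). An exchange of labels between these 2 arrays was not tested, and under one the siRNA differences with all arrays would mean something else. Results of the siRNA comparison are therefore given with all arrays and without these 2, which were set aside because of their profile, so adjusted p-values without them are no independent evidence. Array medians were 3.95 to 4.02 in the siRNA arrays and 4.32 to 4.38 in the anti-miR arrays, and no source used here tells if both experiments were normalized together. Signal of the 18S ribosomal RNA control probe sets was 10.47 in siRNA-96 replicate 1, 7.86 in siRNA-96 replicate 3 and 10.23 in anti-miR-449 replicate 1, against 5.40 to 6.75 in the others. Of 10 mesenchymal markers, 9 were above the array median in all arrays, with Col1a1, encoding a chain of collagen I, reaching 13.59, and Thy1 was below it in all (3.09 to 3.98). Of 3 blood markers, Cd68 read 4.55 to 5.66, above the median in all arrays, and Ptprc (2.01 to 2.70) and Hba-a1 (2.43 to 2.86) were below it in all. Of 3 endothelial markers, Pecam1 (2.38 to 3.01) and Cdh5 (3.01 to 4.24) were below the median in all arrays, and Tek (3.50 to 4.46) was above it in replicates 1 and 2 of siRNA-140. Of 5 epithelial markers, Epcam (5.67 to 6.81) and Krt8 (4.53 to 5.41) were above the median in all arrays and Krt18 (2.09 to 2.76) and Cldn4 (3.07 to 3.45) below it in all. Cdh1 (2.58 to 4.47) was above it in anti-miR-449 replicate 1 alone.

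The second experiment asked what follows when endogenous miR-140 is suppressed. In it Fos and Fosb varied by more than 1 log2 unit between arrays, and the arrays that were low carried both labels. The Fos family is taken first. Fos, the founding partner of Jun in AP-1, read 9.58, 8.49 and 9.25 in the anti-miR-140 arrays, against 8.97, 8.65 and 8.68 in the anti-miR-449 arrays. The lowest of the 6 arrays and the highest were thus both anti-miR-140 arrays, and the groups overlapped. The difference was 0.34 ± 0.22 (SE; 95% interval -0.12 to 0.80; limma adjusted p = 1). Fosb, a close relative of Fos, read 4.45, 3.43 and 4.33 in the anti-miR-140 arrays, against 3.93, 3.38 and 3.27 in the anti-miR-449 arrays. Apart from 4.45 in anti-miR-140 replicate 1, these levels lie below the medians of their arrays (4.32 to 4.38), where a probe set is dim. Here too anti-miR-140 replicate 2 read among the low arrays. The difference was 0.54 ± 0.27 (95% interval -0.05 to 1.13; adjusted p = 1).

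Fosl1, a Fos relative that lacks the transactivation domain of Fos, read 9.19, 9.04 and 9.12 in the anti-miR-140 arrays, against 9.16, 8.97 and 8.94 in the anti-miR-449 arrays at its brighter probe set, a difference of 0.09 ± 0.13. Fosl2 read 9.09, 9.46 and 9.12 in the anti-miR-140 arrays, against 9.30, 9.27 and 9.27 in the anti-miR-449 arrays, a difference of -0.06 ± 0.11. At this brighter probe set its order was turned round against that of Fos, with anti-miR-140 replicate 2 highest and anti-miR-140 replicate 1 lowest. The dimmer probe set did not show this order. It read 6.01, 6.06 and 6.06 in the anti-miR-140 arrays, against 6.13, 6.04 and 5.91 in the anti-miR-449 arrays.

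The Jun family, whose proteins pair with Fos or with each other, ranged over 0.14 to 0.25 across these arrays at its brighter probe sets. Jun read 9.64, 9.69 and 9.78 in the anti-miR-140 arrays, against 9.58, 9.67 and 9.55 in the anti-miR-449 arrays, a difference of 0.10 ± 0.11, while its dimmer probe set gave -0.02 ± 0.12. Junb, which restrains Jun in many promoters, read 8.53, 8.33 and 8.44 in the anti-miR-140 arrays, against 8.38, 8.33 and 8.28 in the anti-miR-449 arrays, a difference of 0.10 ± 0.09. Jund, the member least dependent on stimulation, read 11.06, 11.06 and 11.04 in the anti-miR-140 arrays, against 11.03, 11.16 and 11.17 in the anti-miR-449 arrays, a difference of -0.07 ± 0.10. Its dimmer probe set read 2.41 to 3.37 over all arrays, below every array median, and differed by -0.10 ± 0.13. All 3 pairs of groups overlapped.

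Among the Egr genes, Egr1, the best known growth-factor-induced member, read 10.57, 9.95 and 10.32 in the anti-miR-140 arrays, against 10.34, 10.16 and 10.21 in the anti-miR-449 arrays. Its highest and lowest arrays were the same arrays as for Fos, and the difference was 0.04 ± 0.18 (95% interval -0.34 to 0.42). Egr3 read 6.79, 6.09 and 6.46 in the anti-miR-140 arrays, against 6.51, 6.12 and 6.06 in the anti-miR-449 arrays, a difference of 0.22 ± 0.20. Its dimmer probe set read 6.24, 6.14 and 6.17 against 6.03, 6.16 and 6.36 and did not show the same order. Egr2, a factor of nerve myelination and hindbrain patterning, read 5.28, 4.87 and 5.21 in the anti-miR-140 arrays, against 4.97, 5.0 and 5.02 in the anti-miR-449 arrays at its brighter probe set, a difference of 0.12 ± 0.21. The dimmer probe sets differed by 0.13 ± 0.22 for Egr2, 0.06 ± 0.12 for Fosl1 and 0.02 ± 0.09 for Fosl2, and their groups overlapped.

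limma called 0 of the 16 member probe sets at an adjusted p under 0.05, where percent called over all probe sets was 0%. At an unadjusted p under 0.05 it had 0 of 16, beside 2.27% of all probe sets. In 0 of 16 did the 3 arrays of one group all lie beyond those of the other, beside 8.4% of all probe sets. Fitted on only these 6 arrays, 0 of 16 had an unadjusted p under 0.05, beside 4.77%, and the smallest adjusted p was 0.974. The median difference of the 10 genes, 1 probe set each, was 0.10, with 8 above 0 and 2 below, beside -0.0033 over 18193 genes. The 95% intervals of the 16 probe sets reached from -0.38 to 1.13, so a change of 1 log2 unit in Fosb lay within its interval.

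**Figure D1:**
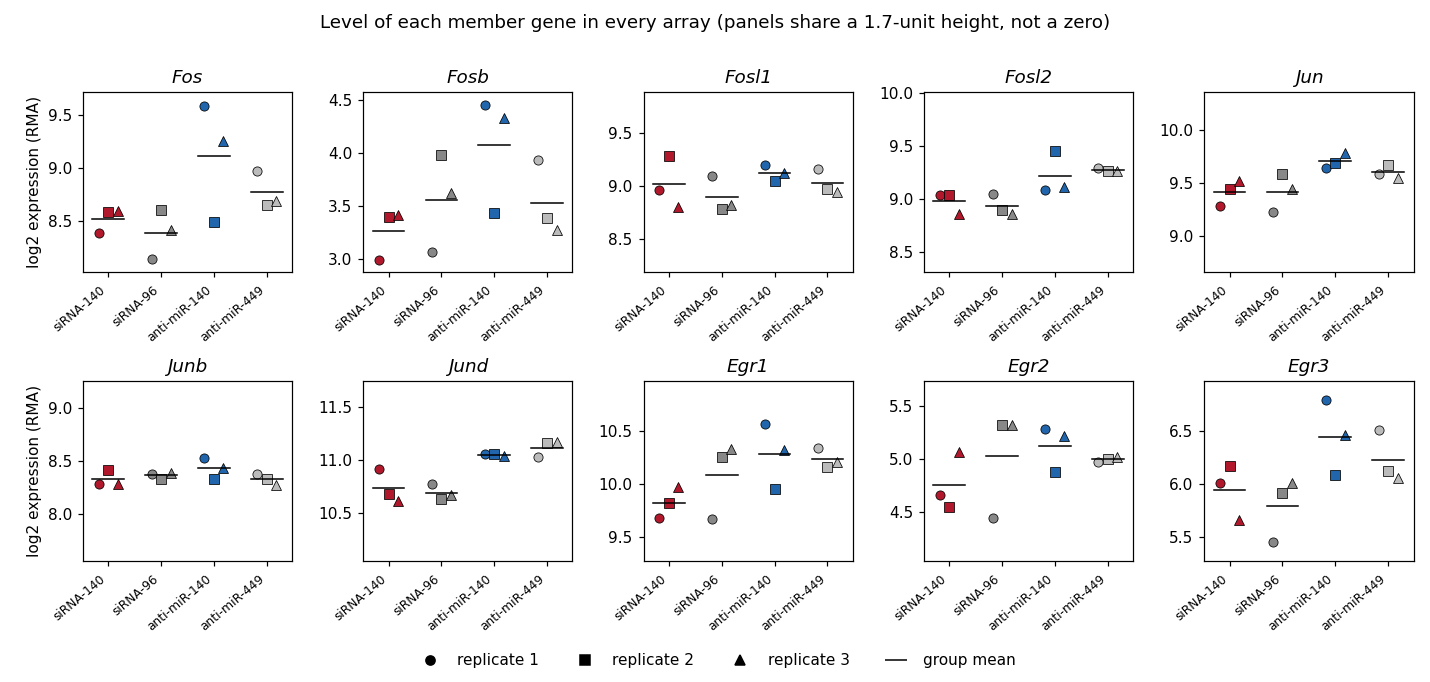
Log2 expression of the 10 genes (the probe set with the highest mean) in each of the 12 arrays, by group. Points are arrays, with the marker giving the replicate number, and lines are group means; every panel spans the same height and none starts at 0. Fos and Fosb spread widely among the anti-miR-140 arrays, with replicate 2 low, and Egr2 spreads widely among the siRNA-96 arrays, with replicate 1 low.

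The spread of Fos and Fosb between the anti-miR arrays was wide beside that of other genes. The range from lowest to highest array was 1.18 for Fosb and 1.09 for Fos, against a median of 0.27 over 18193 genes. Only 5 genes had a wider range than Fosb and 7 a wider range than Fos. Among the 9799 genes with a mean of at least 5, of which Fos is one, 3 were wider than Fos. Egr3 ranged over 0.73, with 1.01% of all genes wider, and Egr1 over 0.62, with 3.23% wider. Egr2, at 0.41, had 19.7% wider, and Fosl2, at 0.37, had 26.4% wider. Fosl1, Jun, Junb and Jund ranged over 0.14 to 0.25, below the median of all genes. Against genes with a mean of at least 5, Jun (41.5% wider), Junb and Fosl1 (35.1% wider each) were above the median range, and only Jund (77.5% wider) below it. In the siRNA arrays, where the median range was 0.42, the order differed: Fosb ranged over 0.99 and Egr2 over 0.88, but Fos over only 0.46, with 41.8% of genes wider. These ranges describe single arrays. Over the anti-miR arrays the median range was 0.21 among genes with a mean of at least 5, a level the Fosb probe set does not reach.

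**Figure D2:**
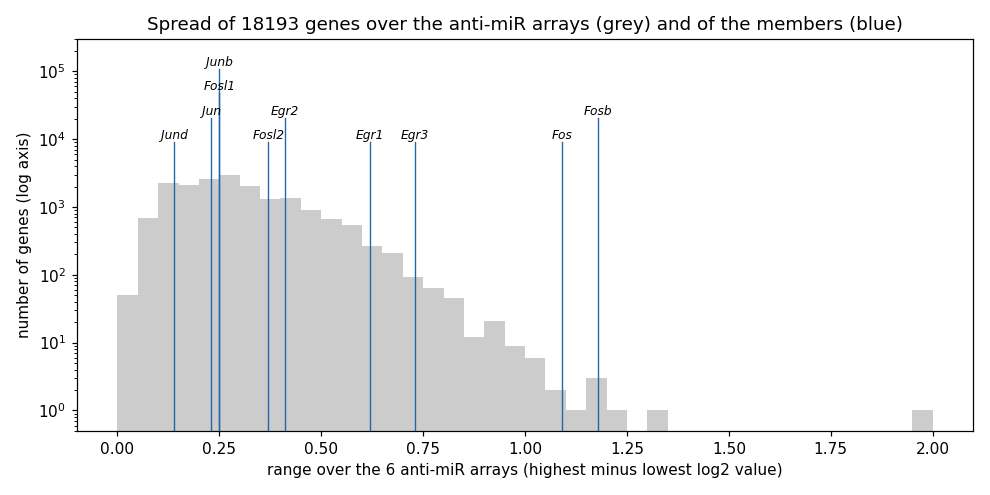
Number of genes (log axis) by their range over the 6 anti-miR arrays in log2 units, in bins of 0.05, with the 10 members marked by lines. Fosb at 1.18 and Fos at 1.09 lie at the far end of the distribution, and Jund at 0.14 below its middle.

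The same arrays were high for several members. With each value set against its gene's mean in the experiment, the 10 genes averaged 0.24, -0.14 and 0.12 in replicates 1, 2 and 3 of anti-miR-140, against 0.03, -0.11 and -0.14 in those of anti-miR-449. Of the 10 genes, each at its brightest probe set, 7 were highest in anti-miR-140 replicate 1. The share of all genes highest in that array was not computed. The dimmer probe sets did not repeat this: Fosl1 was highest in anti-miR-449 replicate 1, Egr2 in anti-miR-140 replicate 3 and Egr3 in anti-miR-449 replicate 3. Anti-miR-140 replicate 2 was the lowest array for Fos, Egr1 and the brighter Egr2 probe set, though not for the dimmer one. It was also the array with the highest Ifit1, an interferon-induced gene, at 4.97, against 3.01 to 3.30 in the other anti-miR arrays. Usp18 was highest there too, at 4.45, against 3.13 to 3.73. The difference between the 3′ and the 5′ control probe sets of Gapdh was 0.01, 0.01 and 0.06 in the anti-miR-140 arrays, against 0.04, 0.14 and 0.00 in the anti-miR-449 arrays. That of the actin control probe sets was 0.23, 0.25 and 0.26, against 0.29, 0.23 and 0.21. The part of interferon-induced genes, of 18S signal or of RNA quality in these values was not tested. In RNA of whole cultures, a change in all cells and a change in the share of responding cells cannot be told apart.

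**Figure D3:**
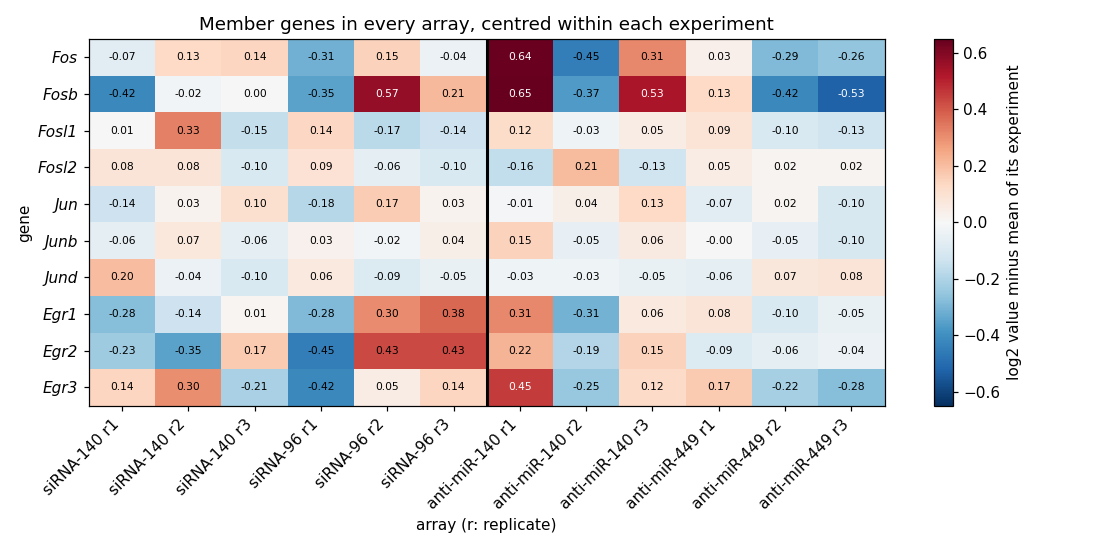
Rows are genes at their probe set with the highest mean, and columns are arrays. Cells give the log2 value minus the mean of its experiment, in red above and blue below. The line parts the siRNA arrays from the anti-miR arrays. Fos, Fosb, Egr1 and Egr3 are highest in anti-miR-140 replicate 1, while Egr1 and Egr2 are highest in siRNA-96 replicates 2 and 3.

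Likeness to Fos was measured as Pearson's r over the 6 anti-miR arrays, as a description. The 5 most alike of 9798 genes with a mean of at least 5 were Zfp862-ps (r = 0.978), Pgrmc2 (0.971), Gpr107 (0.970), Nlgn2 (0.957) and Panx1 (0.957), but they ranged over only 0.09 to 0.24. Of the members, Fosb (r = 0.950) would rank 8, Egr3 (0.947) ranked 12, Junb (0.945) 13 and Egr1 (0.933) 18. Egr2 (0.926), with a mean just under 5, would rank 26. At their brighter probe sets, Fosl1 (0.804) ranked 252, Jun (0.199) 3509 and Jund (-0.5) 7863, and Fosl2 lay at the other end (r = -0.887, rank 9631). Each gene entered with its brightest probe set only, and the dimmer Egr3 probe set did not show the order of Fos. Further immediate early genes, picked after values had been seen, gave r = 0.917 for Ier2 and 0.863 for Zfp36, 0.860 for Nr4a1 and 0.690 for Btg2, but -0.231 for Atf3 and -0.361 for Dusp1. For Egr1 the 5 most alike were Sox12 (r = 0.980), Nlgn2 (0.972), Mier3 (0.969), Rbm28 (0.968) and Celf2 (0.962), with ranges of 0.15 to 0.33. These values describe 6 arrays of 1 experiment, searched over 9798 genes.

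The first experiment asked what follows when miR-140 is raised, and in it no member passed with the groups as labelled. Fos read 8.38, 8.58 and 8.59 in the siRNA-140 arrays, against 8.14, 8.60 and 8.41 in the siRNA-96 arrays, a difference of 0.13 ± 0.22 (SE; 95% interval -0.33 to 0.60; limma adjusted p = 0.939). Fosb read 2.99, 3.39 and 3.41 in the siRNA-140 arrays, against 3.06, 3.98 and 3.62 in the siRNA-96 arrays, a difference of -0.29 ± 0.27 (interval -0.88 to 0.30; adjusted p = 0.893). Both pairs of groups overlapped, and siRNA-96 replicate 1 was low among its group for both.

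Fosl1 read 8.96, 9.28 and 8.80 in the siRNA-140 arrays, against 9.09, 8.78 and 8.82 in the siRNA-96 arrays, a difference of 0.12 ± 0.13. Its dimmer probe set gave 0.10 ± 0.12. Fosl2 differed by 0.04 ± 0.11, and by 0.08 ± 0.09 at its dimmer probe set. Of the Jun family, Jun read 9.28, 9.44 and 9.52 in the siRNA-140 arrays, against 9.23, 9.58 and 9.44 in the siRNA-96 arrays, a difference of -0.0033 ± 0.11. Junb differed by -0.03 ± 0.09 and Jund by 0.05 ± 0.10. The dimmer probe sets gave -0.03 ± 0.12 for Jun and 0.11 ± 0.13 for Jund. Junb was the narrowest member over the siRNA arrays, with a range of 0.13 that 98.3% of genes exceeded.

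Egr1 read 9.68, 9.82 and 9.97 in the siRNA-140 arrays, against 9.67, 10.26 and 10.33 in the siRNA-96 arrays, a difference of -0.26 ± 0.18 (interval -0.64 to 0.12; adjusted p = 0.880). The brighter Egr2 probe set read 4.66, 4.54 and 5.06 in the siRNA-140 arrays, against 4.44, 5.32 and 5.32 in the siRNA-96 arrays, a difference of -0.27 ± 0.21 (interval -0.72 to 0.17; adjusted p = 0.882). Its dimmer probe set read 4.18, 4.25 and 4.45 in the siRNA-140 arrays, against 3.70, 4.72 and 4.82 in the siRNA-96 arrays. At both, siRNA-140 replicate 3 was the highest of its group, siRNA-96 replicate 1 was the lowest of all 6 arrays, and the groups overlapped. Egr3 read 6.01, 6.17 and 5.66 in the siRNA-140 arrays, against 5.45, 5.92 and 6.01 in the siRNA-96 arrays, a difference of 0.15 ± 0.20, and did not share this order. Its dimmer probe set gave 0.05 ± 0.11.

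limma called 0 of the 16 member probe sets at an adjusted p under 0.05, beside 0% of all probe sets. At an unadjusted p under 0.05 it had 0 of 16, beside 5.09%, and the groups did not overlap in 0 of 16, beside 6.1%. The median difference of the 10 genes was 0.02, with 5 above 0 and 5 below, beside 0.03 over all 18193 genes.

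With replicate 3 of siRNA-140 and replicate 1 of siRNA-96 left out, Egr2 read lower in the siRNA-140 arrays kept than in the siRNA-96 arrays kept. In that fit of 10 arrays (n = 2 against n = 2 in this comparison) limma called 2 of the 16 member probe sets, both of Egr2 and both lower (12.5%), beside 8.98% of all probe sets in either direction and 3.85% lower. The brighter one differed by -0.72 ± 0.13 (SE; 95% interval -1.0 to -0.44; limma adjusted p = 0.00352) and the dimmer one by -0.56 ± 0.11 (-0.555; adjusted p = 0.00738). In the fit of the 4 remaining siRNA arrays alone 1 was called, the brighter one (adjusted p = 0.0191; 0.0620 for the dimmer), beside 3.87% of all probe sets in either direction and 1.85% lower. Egr1 gave -0.55 ± 0.16 (-0.545; interval -0.90 to -0.19) and just missed the threshold in both fits (limma adjusted p = 0.0559 with 10 arrays and 0.0693 with 4). Fosb gave -0.61 ± 0.30 (adjusted p = 0.272) and Fos -0.025 ± 0.26 (adjusted p = 0.979). Fosl1 gave 0.32 ± 0.13 (adjusted p = 0.163), with the opposite sign to Egr1 and Egr2. The members' median was -0.015, beside 0.035 over all genes. The arrays kept also differ in profile, with Usp18 at 3.85 and 4.67 for siRNA-140 against 8.92 and 9.30 for siRNA-96. Label and profile therefore cannot be told apart in these fits, for Egr2 or any other gene.

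**Figure D4:**
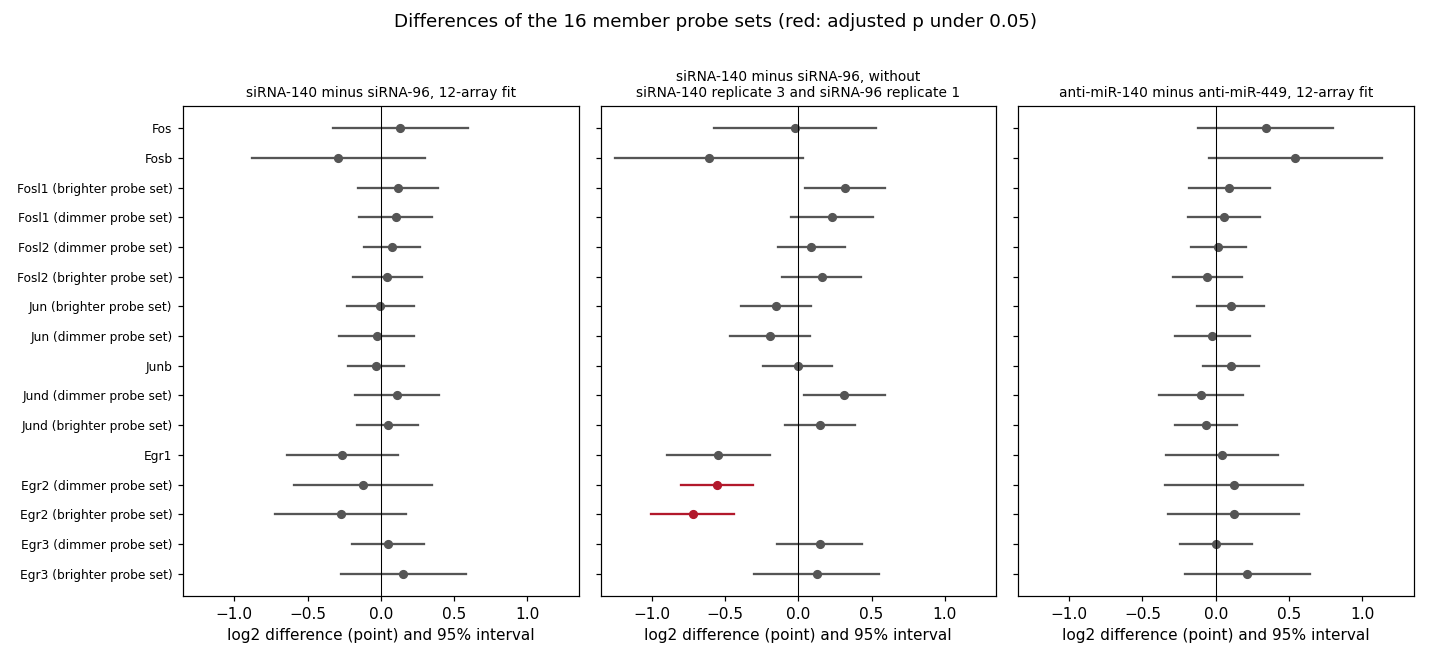
Log2 differences (points) with 95% intervals from limma for the 16 member probe sets, in 3 panels: siRNA-140 minus siRNA-96 with all arrays, the same with replicate 3 of siRNA-140 and replicate 1 of siRNA-96 left out, and anti-miR-140 minus anti-miR-449. Red marks an adjusted p under 0.05, which only the Egr2 probe sets reach, in the middle panel.

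Egr1 and Egr2 were high in the siRNA arrays in which interferon-induced genes were high. The mean of 8 interferon-induced genes with a probe set of their own, of 10 listed, was 4.15, 4.30 and 6.47 in replicates 1, 2 and 3 of siRNA-140, against 4.43, 7.70 and 8.24 in those of siRNA-96. The 3 arrays with the highest means were also those with the highest Egr1 and, at both probe sets, the highest Egr2. Fosl1 was lowest in the same 3 arrays at both of its probe sets. Fosb was also highest in these 3 arrays, though narrowly (3.41 in siRNA-140 replicate 3 against 3.39 in siRNA-140 replicate 2). Jund at both probe sets and Fosl2 at its brighter one were lowest there, but Fosl2 at its dimmer one was not. The share of all probe sets highest or lowest in these 3 arrays was not computed. Postn, which encodes the matrix protein periostin, parted the arrays in the same way (6.61, 6.17 and 10.01 in the siRNA-140 arrays, against 6.23, 10.06 and 10.16 in the siRNA-96 arrays). The part of the interferon response in the Egr2 result was not tested.

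**Figure D5:**
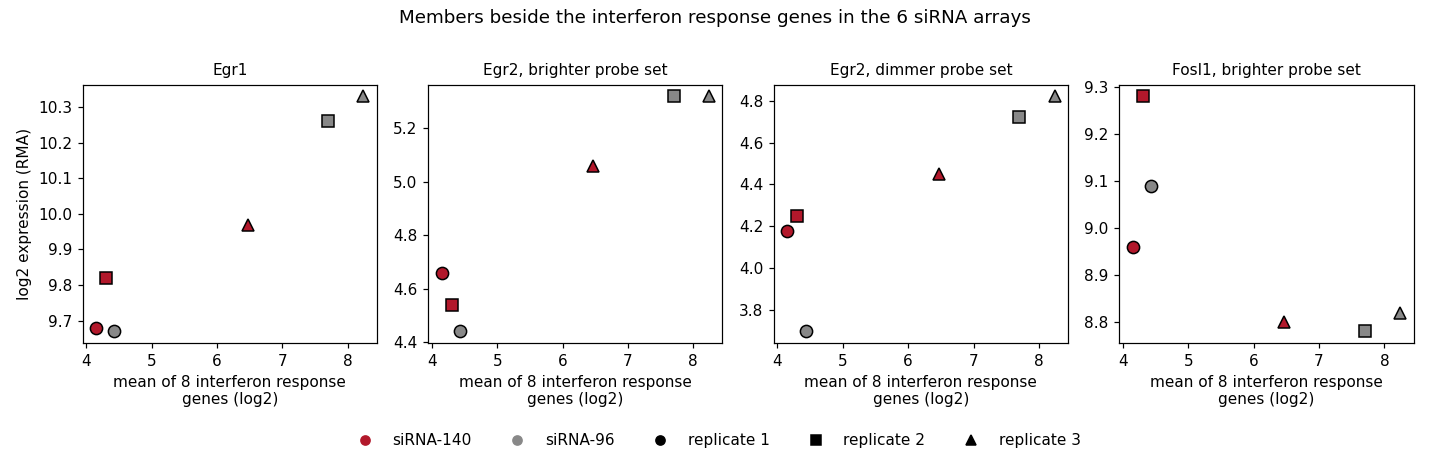
Log2 expression of Egr1, of both Egr2 probe sets and of the brighter Fosl1 probe set against the mean log2 value of 8 interferon response genes, in the 6 siRNA arrays; colour gives the group and the marker the replicate. Egr1 and Egr2 are highest, and Fosl1 lowest, in siRNA-140 replicate 3 and siRNA-96 replicates 2 and 3.

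Whether the 2 comparisons differed was tested as an interaction, siRNA-140 minus siRNA-96 less anti-miR-140 minus anti-miR-449. It called 0 of the 16 member probe sets, beside 0% of all, and 0 of 16 at an unadjusted p under 0.05, beside 2.94%. Fosb came nearest, at -0.83 ± 0.39 (SE; 95% interval -1.67 to 0.0026; limma adjusted p = 0.997). In the fit of 10 arrays it called 2, both of Egr2 (-0.84 ± 0.17 and -0.68 ± 0.15; limma adjusted p = 0.0124 and 0.0184), beside 4.41% of all.

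Levels of all members were compared across the 4 groups as a description. For all 16 probe sets this order put an anti-miR group first, but the array medians differ in the same direction, so it is not read further. At the brighter Jund probe set every anti-miR array read above every siRNA array (11.03 to 11.17 against 10.62 to 10.92). Likewise at the brighter Fosl2 probe set (9.09 to 9.46 against 8.86 to 9.05). The dimmer probe sets of Jund and Jun parted in the same way. Their lowest anti-miR arrays read 2.99 and 8.86, and their highest siRNA arrays 2.94 and 8.79. At the other member probe sets, the dimmer one of Fosl2 among them, the arrays of the experiments overlapped. How many of all probe sets parted in this way was not computed, so this too is not read further. Fos averaged 9.11 ± 0.56 with anti-miR-140, 8.77 ± 0.18 with anti-miR-449, 8.52 ± 0.12 with siRNA-140 and 8.38 ± 0.23 with siRNA-96 (SD, n = 3 each). The arrays of neighbours in this order overlapped, apart from those of anti-miR-449 and siRNA-140. Junb averaged 8.43 ± 0.10 with anti-miR-140, 8.37 ± 0.03 with siRNA-96, 8.33 ± 0.08 with siRNA-140 and 8.33 ± 0.05 with anti-miR-449, and the arrays of all neighbours overlapped.

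The rest of the pathway was followed with lists chosen with earlier results of these data known. Of the kinases that relay the signal, 13 of the 20 listed had a probe set of their own, and 0 passed in either comparison with the groups as labelled. The smallest p among them belonged to Mapk7 with siRNA-140 (0.19 ± 0.10) and Rps6ka5 with anti-miR-140 (0.15 ± 0.17). Factors that act on immediate early promoters include serum response factor and the Elk proteins. Of 16 symbols listed, some of them older names of Mrtfa and Mrtfb, 13 were measured and 0 passed. The smallest p belonged to Elk3 with siRNA-140 (0.23 ± 0.12) and Elk1 with anti-miR-140 (0.16 ± 0.13). Further immediate early genes, 28 of 30 listed symbols measured, had a median difference of 0.05 with anti-miR-140, beside -0.0033 over all genes. The symbols not measured are older names of Ccn1 and Ccn2, so no gene of this list was missing. Of the 28 genes, 21 lay above 0 and 7 below, and 0 passed. Their smallest p belonged to Klf6, a zinc finger factor, at 0.18 ± 0.13 (limma adjusted p = 1). With siRNA-140 their median was -0.0067 and 0 passed, with the smallest p at Ccn1 (-0.36 ± 0.20). Feedback inhibitors of MAP kinases, 15 measured, had a median of -0.02 in the siRNA-140 comparison and -0.01 in the anti-miR-140 one, with 0 past the test, and the smallest p with siRNA-140 was that of the receptor signalling inhibitor gene Spry2 (-0.51 ± 0.17, adjusted p = 0.880), and with anti-miR-140 that of the phosphatase gene Dusp8 (-0.11 ± 0.09). Of 23 reported AP-1 and Egr targets measured, 0 passed, with the matrix protease gene Mmp3 at -0.28 ± 0.15 with anti-miR-140 (adjusted p = 1) and Tgfb1, encoding a growth factor, at 0.33 ± 0.12 with siRNA-140 (adjusted p = 0.880). Of 15 relatives of the AP-1 proteins and 5 Egr relatives and corepressors, 0 passed in either comparison. Among these, Atf2, a partner of Jun, gave 0.28 ± 0.11 (adjusted p = 0.880) and Egr4 -0.22 ± 0.11 (adjusted p = 0.880) with siRNA-140, and Batf3 gave 0.19 ± 0.12 and Nab2 -0.05 ± 0.08 with anti-miR-140.

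In the fit of 10 arrays more of the pathway passed, in both directions, while 0 of these genes passed with all arrays. In that fit 5.13% of all probe sets were higher and 3.85% lower. These shares cover all probe sets, dim ones included, while the lists use the brightest probe set of each gene. The share over such probe sets was not computed, so the list counts are not read as an excess. Label and profile of the siRNA arrays cannot be told apart in that fit. Of the 28 further immediate early genes 7 were higher and 5 lower with siRNA-140 (4 higher and 3 lower with 4 arrays, where 2.02% of all probe sets were higher and 1.85% lower), with a median of -0.09 beside 0.035 over all genes. Btg2, an antiproliferative gene, read 7.26 and 7.39 in the siRNA-140 arrays kept, against 8.42 and 8.34 in the siRNA-96 arrays kept, and was lower in that fit, with a difference of -1.06 ± 0.12 (-1.055; limma adjusted p = 8.29e-05). The arrays left out read 8.38 (siRNA-140 replicate 3) and 7.13 (siRNA-96 replicate 1), each at the other group's level, and with all arrays the difference was -0.29 ± 0.31 (adjusted p = 0.904). The growth factor gene Hbegf read 8.86 and 9.23 against 8.01 and 7.98 in the same arrays and was higher in that fit (by just over 1 log2 unit; limma adjusted p = 0.000188). Here too the arrays left out stood with the other group, at 8.10 (siRNA-140 replicate 3) and 8.98 (siRNA-96 replicate 1), and with all arrays the difference was 0.41 ± 0.27 (adjusted p = 0.880). The prostaglandin synthase gene Ptgs2 was higher by 0.82 ± 0.11. Ccn1, a matricellular target of serum response factor, was lower (-0.82 ± 0.11). Of the 13 kinases, Map2k1, which activates ERK, was higher by 0.83 ± 0.12, and Map2k3, which activates p38, by 0.75 ± 0.11. Map2k6, another activator of p38, was lower (-0.72 ± 0.11). Of the 13 promoter factors, the Srf partner gene Elk3 (0.43 ± 0.11) and Yy1 (0.36 ± 0.10; 0.355) were higher, though neither passed with 4 arrays (adjusted p = 0.175 and 0.259). Of 15 feedback inhibitors, the phosphatase gene Dusp1 was higher by 0.68 ± 0.11 (0.675), and Dusp10 (-0.54 ± 0.12; -0.535) and Dusp5 (-0.45 ± 0.11; -0.445) were lower, of which Dusp1 alone passed with 4 arrays (adjusted p = 0.0322). Of 23 targets 5 were higher and 1 lower (2 and 1 with 4 arrays), the lower one being Tnc, a matrix protein gene (-0.79 ± 0.12). The oxidative stress genes Hmox1 (0.69 ± 0.13) and Nqo1 (0.56 ± 0.11; 0.555) and Tgfb1 (0.55 ± 0.11) were among the higher ones, though Nqo1 and Tgfb1 did not pass with 4 arrays (adjusted p = 0.0710 and 0.0778). Of the AP-1 relatives and of the Egr relatives and corepressors 0 passed.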

How the data were processed

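The authors deposited log2 expression values made with RMA, which corrects background, brings arrays to one distribution and summarises each probe set, per the submitters' processing notes. No source used here states its version. Of 45101 probe sets, 64 array controls were left out and 45037 tested without a filter on level. Symbols came from the platform annotation, and only probe sets with 1 symbol (34945) were named. A gene with several probe sets was represented by the brightest (18193 genes).

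limma 3.58.1 (R 4.3.3) estimated the 4 group means from the 12 arrays together, and a probe set was called below 0.05 after Benjamini-Hochberg adjustment across 45037 probe sets. It was tested on simulated data with noise drawn independently for each array. The simulated data did not hold the profiles that siRNA arrays of both labels share. The number of arrays limits the precision. The members and gene lists were chosen with earlier results of these data known. All members were named, and of each list up to 4 that passed (by smallest p) or else the one with the smallest p. Alternatives were the arrays of one experiment alone, a replicate block, further quantile normalization, median centring, a filter on level, an intensity trend with robust variances, the mean of a gene's probe sets, each array left out, and 2 siRNA arrays left out together.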

Additional observations from a re-analysis of the deposited data

How the results depend on the processing

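With all 12 arrays or 1 experiment's 6, 0 member probe sets were called in both comparisons under each alternative run. With replicate 3 of siRNA-140 and replicate 1 of siRNA-96 left out, all probe sets called for siRNA-140 minus siRNA-96 numbered 4043 with 10 arrays and 1743 with 4, and members 2 and 1; for the interaction these were 1985 and 2. Leaving out 1 array gave 0 to 36 probe sets called for siRNA-140 (36 without siRNA-96 replicate 1, 25 without siRNA-96 replicate 2), 0 for anti-miR-140, and 0 members in each. The members' median then lay between -0.02 (-0.0225) and 0.04 with siRNA-140 and between 0.05 and 0.18 with anti-miR-140. Signs turned only for differences that had not passed: with siRNA-140, Fos at -0.025 without the 2 arrays (with 10 or 4), Fosl2 at -0.0061 after further quantile normalization, and, with 1 array left out, Jun (-0.0967 to 0.0783), Jund (-0.0433 to 0.11), Fosl1 (-0.0167 to 0.22) and Egr3 (-0.0183 to 0.30); with anti-miR-140, Fosl2 (-0.18 to 0.01; lowest -0.175) and Egr1 (-0.10 to 0.21). Fos with anti-miR-140 lay between 0.10 and 0.65 and Fosb between 0.35 and 0.86 when 1 array was left out. Deviations of same-numbered arrays correlated at 0.41, -0.241 and 0.439 (siRNA) and -0.014, 0.103 and -0.032 (anti-miR). Those of differently numbered arrays correlated at -0.677 to 0.493 (siRNA) and -0.07 to 0.092 (anti-miR). The 2 siRNA arrays that read like the other group enter these values, so they do not settle if the numbers pair arrays. The replicate block called 0 probe sets in each comparison and left Fos with anti-miR-140 at 0.34. Dim probe sets such as Fosb limit what the arrays can resolve.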

Other observations

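The genes with a wider range than Fos over the anti-miR arrays, named after their values had been seen, were Ifit1 (1.96), Usp18 (1.32), Rptn (1.22), Rpl27a (1.20), Lag3 (1.20), Fosb (1.18) and Eid3 (1.14). Eid3 read 3.96, 3.70 and 4.49 in the anti-miR-140 arrays, against 4.08, 3.68 and 3.35 in the anti-miR-449 arrays. Rpl27a and Lag3 were highest in anti-miR-449 replicate 3, at 8.90 and 4.82. The probe set of Junos read 4.77, 4.26 and 4.31 in the anti-miR-140 arrays, against 4.55, 4.54 and 4.34 in the anti-miR-449 arrays, with its highest array the same as for Fos.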
